A study of Mus musculus with 12 samples.

Results

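Complex I (NADH:ubiquinone oxidoreductase) is the first and largest enzyme of the mitochondrial respiratory chain, and its nuclear subunit genes were followed here in mouse small bowel around ileocecal resection. The 36 genes were taken by symbol from a list of nuclear complex I subunits. All 36 were found among the 35791 genes of the files, and all 36 passed the filter on low counts that left 13154 genes for testing. RNA from small bowel of male C57BL/6 mice, 8 to 10 weeks old per the labels, was sequenced in 12 libraries, 3 in each of 4 groups. Pre control and Pre 2'-FL are labelled as taken before resection, which removes the end of the ileum and the cecum. Post control and Post 2'-FL are labelled as taken after it, at 8 weeks. The 2'-FL arm received 2'-fucosyllactose, a fucosylated milk sugar, at 2.5 g/L from the day of resection. The labels give the supplement for the Pre 2'-FL libraries too, so that they do not settle whether these were taken before or during it. All groups share the strain and the sex. They also share a protocol text with the resection and a liquid diet given after surgery before a return to chow. By their titles, the Pre libraries were taken before both. One protocol text puts the removal of every bowel 8 weeks past surgery, which does not match the 6 libraries titled as taken earlier, and the title of each library was followed. Age, diet, recovery from surgery and the segment of bowel, which the labels do not name, cannot be told apart from resection. Nothing in the labels says that libraries of a group came from separate mice, so that p-values measure the spread between libraries, which may be technical.

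Complex I passes electrons from NADH to ubiquinone and pumps protons across the inner mitochondrial membrane. It has the shape of an L, with a matrix arm that holds flavin, iron-sulfur clusters and the ubiquinone site, and a membrane arm that holds the proton channels. The catalytic core of the matrix arm is encoded in the nucleus and that of the membrane arm in mitochondrial DNA, and many accessory subunits are needed for assembly and stability. Absorptive cells of the small bowel draw on this chain for the ATP that drives nutrient uptake and for the oxidation of fuels such as glutamine. The genes encoded in mitochondrial DNA were not analysed here.

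The promoters of 5 members are shown because these genes mark the ends of the result described below: the 3 members with the smallest p after resection in the 2'-FL arm (Ndufb2, Ndufb6, Ndufb8), the member with the smallest p among those that hold the letters bound by NRF1 (Ndufs5), and a member that was not called (Ndufa10). Each window runs from 250 bases before to 50 bases after the transcription start, 5′ to 3′ on the strand of the gene, from RefSeq on GRCm38.p6. The last 50 bases lie in the first exon. Ndufb2 is shown from chr6:39592315-39592614 on the plus strand, Ndufb6 from chr4:40279372-40279671, Ndufb8 from chr19:44555393-44555692, Ndufs5 from chr4:123718137-123718436 and Ndufa10 from chr1:92473709-92474008, all 4 on the minus strand. Capitals mark a match to one of 5 searched motifs.
Ndufb2: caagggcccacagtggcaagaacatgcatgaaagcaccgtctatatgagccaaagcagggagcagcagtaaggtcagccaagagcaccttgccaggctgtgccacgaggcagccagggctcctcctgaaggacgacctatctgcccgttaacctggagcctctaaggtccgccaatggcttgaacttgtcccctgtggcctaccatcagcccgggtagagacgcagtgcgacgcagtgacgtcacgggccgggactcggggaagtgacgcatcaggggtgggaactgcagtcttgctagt
Ndufb6: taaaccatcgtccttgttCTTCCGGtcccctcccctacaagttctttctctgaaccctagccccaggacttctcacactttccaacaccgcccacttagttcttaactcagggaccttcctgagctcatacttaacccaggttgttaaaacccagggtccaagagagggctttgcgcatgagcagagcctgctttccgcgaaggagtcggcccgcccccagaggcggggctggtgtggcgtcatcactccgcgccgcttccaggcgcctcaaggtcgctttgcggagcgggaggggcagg
Ndufb8: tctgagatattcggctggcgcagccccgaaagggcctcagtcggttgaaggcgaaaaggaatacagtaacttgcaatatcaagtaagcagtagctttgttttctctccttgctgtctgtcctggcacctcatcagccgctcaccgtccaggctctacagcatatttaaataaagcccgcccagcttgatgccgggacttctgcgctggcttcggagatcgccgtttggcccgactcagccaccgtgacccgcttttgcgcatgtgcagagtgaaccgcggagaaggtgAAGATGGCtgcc
Ndufs5: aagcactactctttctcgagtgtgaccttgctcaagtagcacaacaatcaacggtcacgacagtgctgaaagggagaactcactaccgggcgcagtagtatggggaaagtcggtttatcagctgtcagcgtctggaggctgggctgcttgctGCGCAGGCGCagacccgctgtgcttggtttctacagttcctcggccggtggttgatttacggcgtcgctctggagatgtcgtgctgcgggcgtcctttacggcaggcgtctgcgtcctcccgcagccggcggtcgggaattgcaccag
Ndufa10: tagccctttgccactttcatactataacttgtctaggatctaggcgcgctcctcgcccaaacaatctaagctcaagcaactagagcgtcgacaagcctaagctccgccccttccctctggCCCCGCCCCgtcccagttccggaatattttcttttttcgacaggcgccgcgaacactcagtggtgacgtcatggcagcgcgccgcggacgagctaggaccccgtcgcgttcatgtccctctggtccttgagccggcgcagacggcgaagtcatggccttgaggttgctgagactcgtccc

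The motifs were searched on both strands in the windows of 33 members, all but Ndufs1, Ndufa2 and Ndufb9. The NRF1 letters, GCGCA and GCGC separated by any 1 base, of a factor known for activating nuclear respiratory genes, were present in 7 of 33 members (21.2%), in 10.9% of the windows of tested genes and in 5.19% of all windows. The YY1 letters AAGATGGC were in 7 of 33 members (21.2%), in 5.11% of tested genes and in 3.19% of all windows. The ETS letters CCGGAAG, read by GABPA, were in 4 of 33 (12.1%) against 19.4% and 9.93%, and the SP1 letters GGGGCGGGG were in 5 of 33 (15.2%) against 23.9% and 12.9%. The estrogen-related receptor letters TCAAGGTCA were in 0 of 33 windows, in 0.287% of tested genes and in 0.466% of all windows. In the printed windows, positions counted from the start site place the ETS match of Ndufb6 at -232 to -226, the YY1 match of Ndufb8 at 39 to 46, the NRF1 match of Ndufs5 at -98 to -89 and the SP1 match of Ndufa10 at -130 to -122. The window of Ndufb2, the member with the smallest p, held none of the 5. The 7 members with the NRF1 letters were Ndufa8, Ndufs5, Ndufa5, Ndufs6, Ndufa6, Ndufb4 and Ndufa11. A match is a run of letters and was not tested as a binding site.

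Library totals ran from 5663275 to 9385266 counts, so that 1 count was worth between 0.107 and 0.177 CPM (counts scaled to library size). The CPM levels below also carry the TMM factors, a correction for differences in composition between libraries. The level of a gene in a library, taken relative to its mean over the 12, was related to transcript length. Over genes, which share each library and are no replicates, Spearman's rho was 0.26 to 0.50 in the 6 Pre libraries. Post control had values of -0.04, -0.21 and 0.36, whereas Post 2'-FL had -0.44, -0.57 and -0.60. Complex I genes are short, with a median of 812 nt for the longest curated transcript and a range of 315 nt (Ndufc1) to 3479 nt (Ndufab1), so each result stands beside other transcripts of the same length and beside values corrected for length and GC content. In this relation to length, Post control 3 stands apart from Post control 1 and 2 and lies with the Pre libraries. Its summed neuron and glia markers, at 6.31 CPM, lie with Post control (5.48 to 8.17 CPM) and below Pre control (14.4 to 27.0 CPM) and Pre 2'-FL (23.2 to 27.7 CPM). Results that rest on Post control 3 are given with and without it. The summed level of 14 enterocyte markers was 30350 to 63664 CPM in Pre and 64203 to 77777 CPM in Post. Of these 14 genes, 2 were higher and 5 lower after resection in the 2'-FL arm, with a median log2 change of 0.04. Of all tested genes 25.3% were higher there. In the same comparison 5 of 7 endothelial, 5 of 10 smooth muscle, 2 of 8 leukocyte and 4 of 6 tested neuron and glia markers were lower, beside 30.0% of all tested genes, 1 smooth muscle marker was higher, and of the few tested adipocyte and striated muscle markers 2 of 4 and 1 of 2 were lower. After the correction, 1 enterocyte marker was higher and 0 were lower, and the markers lower numbered 3 endothelial, 1 smooth muscle, 2 leukocyte and 4 neuron and glia, beside 14.8% of tested genes. With it, 3 of 4 tested adipocyte and 1 of 2 tested striated muscle markers were lower too, and 1 smooth muscle marker was higher. Between the Post groups, 1 enterocyte marker was higher and 6 lower in Post 2'-FL (median -0.69), beside 18.8% and 19.3% of tested genes. Corrected, 0 were higher and 4 lower, beside 10.2% and 11.4%. Of the smooth muscle markers 3 were higher there, as counted and corrected. As counted, 1 leukocyte marker was lower, and 1 striated muscle and 1 neuron and glia marker were higher. Adipocyte markers summed to 309 CPM in Pre 2'-FL 1 and to 71.1 to 127 CPM in the other 11 libraries, and Ucp1, Myh1 and Myh2 were at 0 in all. The part of the cell makeup in the results was not tested, and in bulk tissue fewer cells of a type and less RNA per cell cannot be told apart.

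The 36 genes together took up between 0.311% and 0.352% of all counts in the 6 Pre libraries, whichever the arm. Their share was 0.454% in Post control 1, 0.483% in Post control 2 and 0.347% in Post control 3. Post 2'-FL 1 to 3 had shares of 0.882%, 0.678% and 0.860%. On the TMM scale the summed level was 3076 to 3313 CPM in Pre control, 2820 to 3165 CPM in Pre 2'-FL, 4368, 5025 and 3246 CPM in Post control, and 11026, 7079 and 9826 CPM in Post 2'-FL. The Post 2'-FL libraries thus lay above the other 9 with no overlap, and 2 of 3 Post control libraries lay between them and the Pre libraries.

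Counted gene by gene, 34, 34 and 35 of 36 members lay above all 6 Pre libraries in Post 2'-FL 1, 2 and 3, against 35.9%, 31.1% and 33.5% of tested genes and 81.1%, 79.3% and 82.8% of 721 other genes under 1000 nt. In Post control 1 and 2, 32 and 34 members did so, against 26.9% and 30.3% of tested genes and 52.7% and 60.2% of those short genes. In Post control 3, 9 members did so, against 22.1% of tested genes and 18.9% of the short genes, while 24 members lay within the Pre range and 3 below it. Among the Post 2'-FL libraries 35 of 36 members were lowest in Post 2'-FL 2, where 35.8% of tested genes and 72.3% of the short genes were lowest. Among the Post control libraries 33 of 36 were lowest in Post control 3, where the shares were 35.8% and 81.3%. The median of the members relative to each gene's mean was 1.34, 0.68 and 1.23 log2 units in Post 2'-FL 1 to 3, beside 1.08, 0.60 and 0.95 for other transcripts under 1000 nt. Post control 1 to 3 had member medians of 0.00, 0.22 and -0.47, beside -0.03, 0.13 and -0.46 for those transcripts. With length and GC corrected, the member medians were 0.33, 0.18 and 0.42 in Post 2'-FL, 0.11, 0.20 and 0.05 in Post control, and -0.38 to -0.05 in the 6 Pre libraries. On that scale Post control 3 lay above the Pre range.

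**Figure D1:**
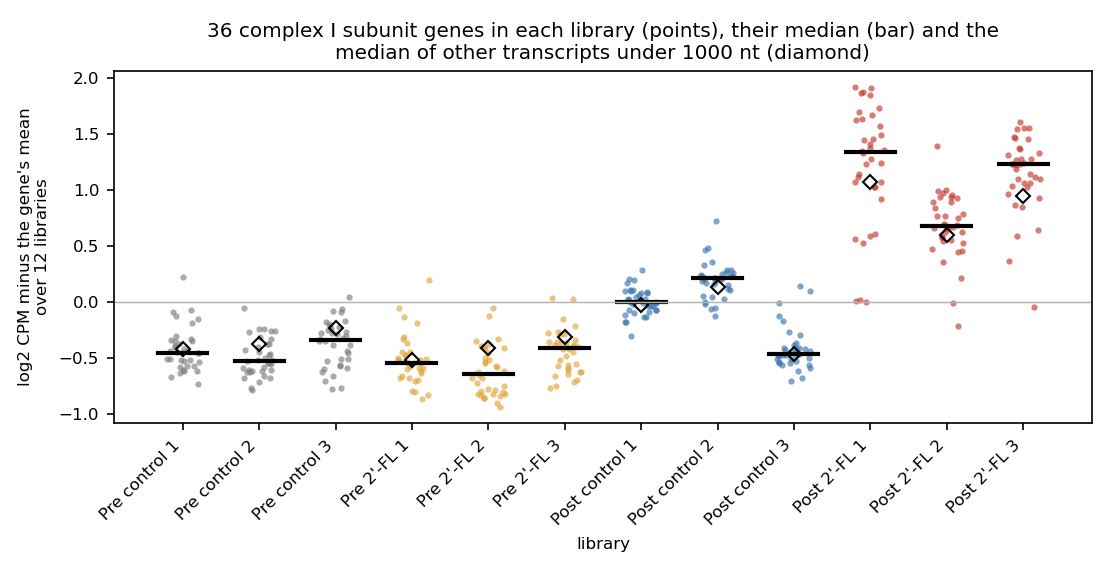
Log2 CPM of the 36 complex I genes in each of 12 libraries, relative to each gene's mean over the libraries, with 1 point per gene, a bar at the median and a diamond at the median of other transcripts under 1000 nt. The bars of Post 2'-FL 1 to 3 sit at 1.34, 0.68 and 1.23, those of Post control 1 and 2 at 0.00 and 0.22, and that of Post control 3 at -0.47, among the Pre libraries.

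After resection in the 2'-FL arm (Post 2'-FL against Pre 2'-FL), complex I genes rose together. Of 36 members, 34 were called higher and 0 lower, calls being genes whose adjusted p fell below 0.05 (edgeR's quasi-likelihood test, Benjamini-Hochberg adjustment over all tested genes). Over all tested genes 25.3% were called higher and 30.0% lower. The median log2 change of the members was 1.58 (a 2.99-fold rise), with a range of -0.13 to 2.41, against -0.13 over all tested genes. The libraries of both groups did not overlap in 34 of 36 members, all higher in Post 2'-FL, against 27.9% of tested genes that were higher without overlap. The 5 largest changes were those of Ndufb2 (2.41 ± 0.22, log2 change ± SE), Ndufb4 (2.32 ± 0.29), Ndufb6 (2.31 ± 0.24), Ndufb8 (2.19 ± 0.24) and Ndufa4 (2.17 ± 0.26). The 3 smallest called changes were those of Ndufv1 (0.57 ± 0.19), Ndufa9 (0.74 ± 0.15) and Ndufs3 (0.91 ± 0.17). Ndufa10 (0.16 ± 0.16, edgeR adjusted p = 0.424) and Ndufs1 (-0.13 ± 0.17, edgeR adjusted p = 0.536) were not called. With length and GC corrected, 22 of 36 members were called higher and 0 lower, against 21.0% of tested genes called higher, and the median was 0.57. With the shortest curated transcript in place of the longest, 31 of 36 were called higher, against 22.4% of tested genes, with a median of 0.64.

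The core of the matrix arm, which carries out NADH oxidation and electron transfer to ubiquinone, split in this comparison: 5 of the 6 core genes among the members rose, with a median log2 change of 0.96. Over all tested genes 25.3% were called higher. Ndufv2 encodes an iron-sulfur subunit of the NADH-oxidising tip. Its level was 142, 139 and 163 CPM in Pre control, 137, 129 and 142 CPM in Pre 2'-FL, 202, 247 and 141 CPM in Post control and 658, 412 and 535 CPM in Post 2'-FL. All 3 Post 2'-FL libraries lay above the other 9, and Post control 3 lay within the Pre range. The change in the 2'-FL arm was 1.98 ± 0.23, and 0.78 when corrected, called in both cases. Ndufv1, its partner, binds NADH and the flavin. It stood at 146, 134 and 149 CPM in Pre control, 145, 122 and 131 CPM in Pre 2'-FL, 171, 188 and 158 CPM in Post control and 159, 184 and 248.6 CPM in Post 2'-FL. The 2 Post groups overlap, and both lie above both Pre groups. The change of Ndufv1 in the 2'-FL arm was 0.57 ± 0.19 (edgeR adjusted p = 0.0175), and the call was lost without Pre 2'-FL 3 (adjusted p = 0.0528) and without Post 2'-FL 3 (0.107).

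Ndufs1, the largest iron-sulfur subunit of the same tip, did not follow. It stood at 131, 108 and 116 CPM in Pre control, 129, 103 and 115 CPM in Pre 2'-FL, 99.1, 108 and 124 CPM in Post control and 112, 97.0 and 109 CPM in Post 2'-FL, and all 4 groups overlap. Its counts were fractional in all 12 libraries, and what made them so is not given in the sources used here. Ndufv1 (1661 nt, 56.7% GC) and Ndufv2 (1697 nt, 42.0% GC; shortest curated transcript 927 nt) have longest transcripts of nearly the same length, while Ndufs1 has 2661 nt. Whether the changes of the 3 partners differ from each other was not tested. Their corrected log2 changes in the 2'-FL arm were 0.38 for Ndufv1 and -0.38 for Ndufs1, neither called, beside the 0.78 of Ndufv2.

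The other 3 of these core genes encode the part that hands electrons to ubiquinone. Ndufs8, with iron-sulfur clusters, stood at 74.1, 63.4 and 80.7 CPM in Pre control, 71.9, 67.8 and 76.7 CPM in Pre 2'-FL, 101, 118 and 73.3 CPM in Post control and 215, 194 and 232 CPM in Post 2'-FL. Ndufs7, whose cluster passes electrons on to ubiquinone, stood at 68.0, 65.2 and 73.8 CPM in Pre control, 69.1, 65.3 and 65.9 CPM in Pre 2'-FL, 91.7, 96.9 and 76.7 CPM in Post control and 131, 118 and 158 CPM in Post 2'-FL. In both genes all Post 2'-FL libraries lay above the other 9, and for Ndufs7 all Post control libraries lay above all Pre libraries as well. Ndufs3, an early scaffold of assembly, stood at 99.4, 89.3 and 105 CPM in Pre control, 88.2, 88.0 and 99.8 CPM in Pre 2'-FL, 89.4, 113 and 90.1 CPM in Post control and 164, 154 and 200 CPM in Post 2'-FL, so that Post control overlapped both Pre groups. The changes in the 2'-FL arm were 1.56 ± 0.19 for Ndufs8, 1.02 ± 0.17 for Ndufs7 and 0.91 ± 0.17 for Ndufs3. Corrected for length and GC they were 0.95, 0.41 and 0.12, and Ndufs3 was no longer called.

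**Figure D2:**
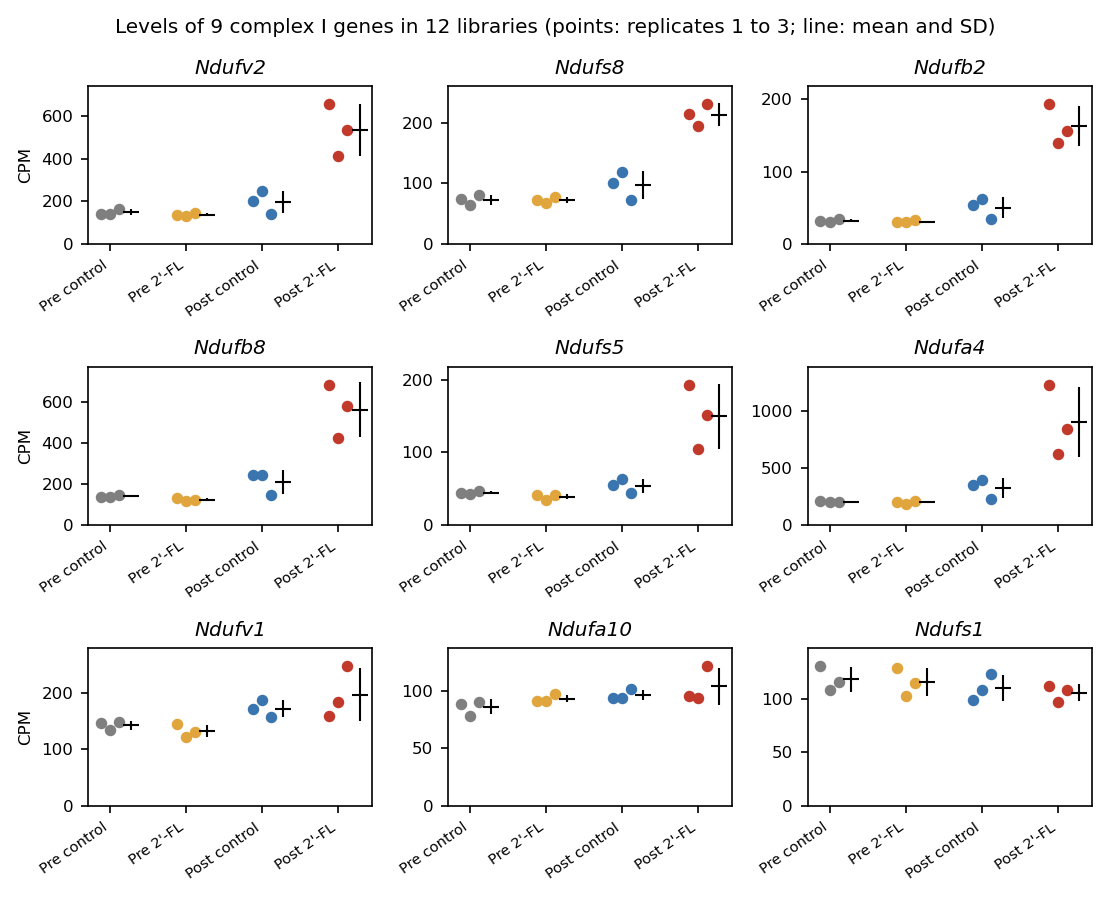
Levels of 9 complex I genes in CPM (linear axes from 0), with 1 point per library, and the mean and SD over 3 libraries beside the points of each group. Ndufv2, Ndufs8, Ndufb2, Ndufb8, Ndufs5 and Ndufa4 lie above all other libraries in Post 2'-FL, while the groups of Ndufs1 overlap.

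All 9 accessory genes of the matrix arm rose in the 2'-FL arm, with a median log2 change of 1.55. Called higher there were 25.3% of all tested genes, and 91.9% of 135 other genes under 1000 nt with mean levels in the range of the members. Ndufa7 stood at 52.2, 54.7 and 51.7 CPM in Pre control, 46.4, 41.7 and 49.5 CPM in Pre 2'-FL, 72.9, 87.6 and 46.6 CPM in Post control and 233, 143 and 208 CPM in Post 2'-FL. Ndufa2 stood at 58.2, 56.3 and 57.5 CPM in Pre control, 57.5, 51.4 and 56.1 CPM in Pre 2'-FL, 87.5, 121 and 65.04 CPM in Post control and 218, 156 and 238 CPM in Post 2'-FL. All Post 2'-FL libraries of both genes were above the other 9, and for Ndufa2 the Post control libraries lay between the Pre and the Post 2'-FL libraries without overlap. Their changes were 2.08 ± 0.24 and 1.89 ± 0.23, or 0.60 and 0.67 when corrected, both called. Ndufs4, a stabiliser of the tip whose loss in mice gives a Leigh-like disease, changed by 1.92 ± 0.24 (corrected 0.80, called). Ndufv3 changed by 1.40 ± 0.19, and by 1.14 when corrected (called). Ndufa9, a subunit at the junction of both arms, changed by 0.74 ± 0.15 as counted and by -0.10 when corrected, where it was not called. Ndufa6, which anchors an acyl carrier to the arm, changed by 1.55 ± 0.25 and was the other gene of this group not called when corrected (0.45). Ndufa5 (1.65 ± 0.22), Ndufa12 (1.49 ± 0.21) and the zinc-binding Ndufs6 (1.47 ± 0.20) were called both as counted and corrected.

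Of the 9 accessory genes at the heel and the proximal part of the membrane arm, 8 rose, with a median of 1.53. This stands beside the 25.3% of all tested genes and the 91.9% of other genes under 1000 nt at the levels of the members. Ndufs5, a cysteine-rich subunit facing the intermembrane space, stood at 44.0, 42.1 and 46.2 CPM in Pre control, 41.5, 34.5 and 40.8 CPM in Pre 2'-FL, 55.6, 62.9 and 43.4 CPM in Post control and 193, 104 and 151 CPM in Post 2'-FL. Ndufa11 stood at 58.6, 57.2 and 60.3 CPM in Pre control, 56.3, 44.5 and 48.6 CPM in Pre 2'-FL, 75.2, 86.3 and 56.5 CPM in Post control and 197, 129.5 and 182 CPM in Post 2'-FL. In both genes Post control 1 and 2 lay above all Pre libraries and Post control 3 lay within their range. The changes in the 2'-FL arm were 1.94 ± 0.22 for Ndufs5 and 1.76 ± 0.21 for Ndufa11, or 0.76 and 0.88 when corrected, both called. Ndufa13, also known as GRIM-19, was the third gene of the group called with the correction (1.25 ± 0.21 as counted, 0.96 corrected). Ndufa1 (1.82 ± 0.24), Ndufc1 (1.60 ± 0.21), Ndufc2 (1.53 ± 0.21), Ndufa3 (1.42 ± 0.22) and Ndufa8 (1.20 ± 0.20) were called as counted, with corrected changes between 0.16 and 0.30 that were not called. Ndufa10, which resembles a nucleoside kinase, stood at 88.7, 78.4 and 90.6 CPM in Pre control, 91.1, 91.3 and 96.7 CPM in Pre 2'-FL, 93.8, 93.4 and 101 CPM in Post control and 95.4, 93.8 and 122 CPM in Post 2'-FL. Its Post 2'-FL and Pre 2'-FL libraries overlap.

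The 10 accessory genes of the distal membrane arm (the Ndufb family) had the highest median of the 4 groups of the 2 arms, 2.09, and all 10 rose. Of all tested genes 25.3% were called higher, and of other genes under 1000 nt at the levels of the members 91.9%. Ndufb2 stood at 31.8, 30.7 and 34.2 CPM in Pre control, 29.7, 29.8 and 32.5 CPM in Pre 2'-FL, 53.8, 62.5 and 34.6 CPM in Post control and 194, 139.8 and 157 CPM in Post 2'-FL. Ndufb6 stood at 58.1, 57.7 and 65.02 CPM in Pre control, 52.8, 52.2 and 56.2 CPM in Pre 2'-FL, 91.2, 105 and 66.8 CPM in Post control and 349, 184 and 269.8 CPM in Post 2'-FL. For both genes the Post 2'-FL libraries lay above all others, and all Post control libraries, the third included, lay above all Pre libraries. Ndufb8 stood at 138, 137 and 148 CPM in Pre control, 130.2, 116 and 124 CPM in Pre 2'-FL, 242, 245 and 144 CPM in Post control and 687, 424 and 583 CPM in Post 2'-FL. Post control 3 lay within the Pre range, and its Post 2'-FL libraries lay above the other 9. Corrected for length and GC, Ndufb2 changed by 1.29 and Ndufb6 by 0.91 in the 2'-FL arm. Also called with the correction were Ndufb8 (1.75), Ndufb4 (1.38), Ndufb7 (1.27), Ndufb9 (1.21), Ndufb10 (0.64) and Ndufb11 (0.39), whose changes as counted were 2.19, 2.32, 2.03, 2.15, 1.56 and 1.35. Ndufb3 (1.80 ± 0.24, corrected 0.19) and Ndufb5 (1.46 ± 0.22, corrected 0.32) were not called with the correction. The counts of Ndufb2 were fractional in all 12 libraries, and its exons overlap those of Braf and Gm16272 on the other strand and of Gm42420.

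Ndufab1 encodes the mitochondrial acyl carrier protein, which serves both complex I and mitochondrial fatty acid synthesis. It stood at 89.4, 85.8 and 109 CPM in Pre control, 83.8, 86.7 and 94.9 CPM in Pre 2'-FL, 136, 162 and 97.7 CPM in Post control and 344, 216 and 319 CPM in Post 2'-FL. Its change of 1.73 ± 0.23 was 1.86 when corrected for length and GC and 2.15 when corrected for length alone. Both corrected values rest on its curated transcript of 3479 nt, and gene counts do not show which transcript was expressed. Ndufa4, first described as a complex I subunit and later placed in complex IV, stood at 213, 199 and 201 CPM in Pre control, 204, 188 and 209.6 CPM in Pre 2'-FL, 350.4, 399 and 229.8 CPM in Post control and 1235, 625 and 845 CPM in Post 2'-FL. Both genes were higher in all Post 2'-FL libraries than in the other 9, and the Post control libraries of Ndufa4 lay above all Pre libraries. The change of Ndufa4 was 2.17 ± 0.26 as counted and 0.37 when corrected, where it was not called.

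**Figure D3:**
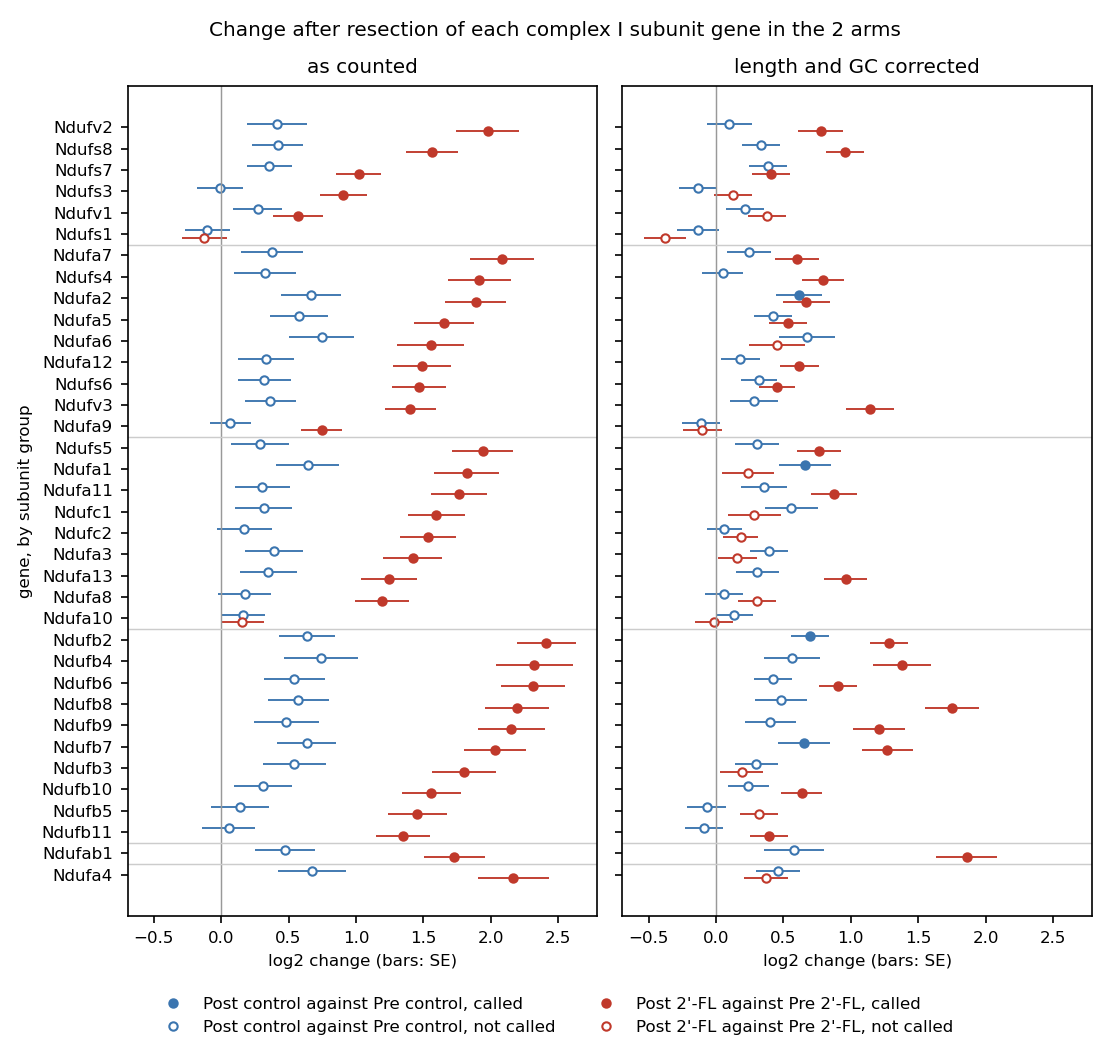
Log2 change after resection of each of the 36 genes in the control arm and the 2'-FL arm (bars: SE; filled points: called at an edgeR adjusted p under 0.05), as counted on the left and corrected for length and GC content on the right. As counted, 34 genes are called in the 2'-FL arm and 0 in the control arm; corrected, 22 and 4 are called.

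Other short transcripts rose in the same comparison. Under 1000 nt, 23 of 23 members were called higher with a median log2 change of 1.76, and so were 550 of 721 other genes (76.3%), with a median of 1.33. Among the 135 of these other genes with mean levels inside the range of the members (69.2 to 408 CPM over all libraries), 124 (91.9%) were called higher, with a median of 1.54. Corrected, 15 of 23 members under 1000 nt were called higher (65.2%, median 0.53), against 224 of the 721 (31.1%, median 0.22) and 60 of the 135 (44.4%, median 0.42). From 1000 nt to under 1500 nt, 5 of 5 members were called higher with a median of 1.25, against 701 of 1178 other genes (59.5%, median 0.86) and 171 of 208 at the same levels (82.2%, median 1.17). Corrected, 2 of these 5 were called (40.0%, median 0.32), against 283 of the 1178 (24.0%, median 0.11) and 88 of the 208 (42.3%, median 0.39). From 1500 nt to under 2500 nt, 5 of 6 members were called higher with a median of 1.66, against 935 of 2899 other genes (32.3%, median 0.27) and 237 of 520 at the same levels (45.6%, median 0.42). Corrected, 4 of these 6 were called (66.7%, median 0.79), against 503 of the 2899 (17.4%, median -0.03) and 150 of the 520 (28.8%, median 0.16). Those 6 were Ndufs4, Ndufv2, Ndufv1, Ndufv3, Ndufb8 and Ndufa10, and Ndufv2, Ndufv3 and Ndufb8 also have a shorter curated transcript of 927, 493 and 680 nt. Each member was also set beside other genes within 10% of its length. In the 2'-FL arm 27 of 36 members lay above the median of their neighbours in length, by a median of 0.38, and the largest gaps were those of Ndufab1 (2.12), Ndufb8 (2.03), Ndufv2 (1.53) and Ndufs4 (1.47). Ndufs1 (-0.01), Ndufa8 (-0.05) and Ndufa10 (-0.06) lay at the median of their neighbours. Ndufa6 (-0.09), Ndufa3 (-0.15), Ndufs6 (-0.17), Ndufs3 (-0.19) and Ndufs7 (-0.42) lay below it. Ndufc1 has 1 neighbour within that window and its gap is not given. The gap of Ndufab1 rests on its curated length of 3479 nt, and whether that transcript was expressed is not known from gene counts.

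**Figure D4:**
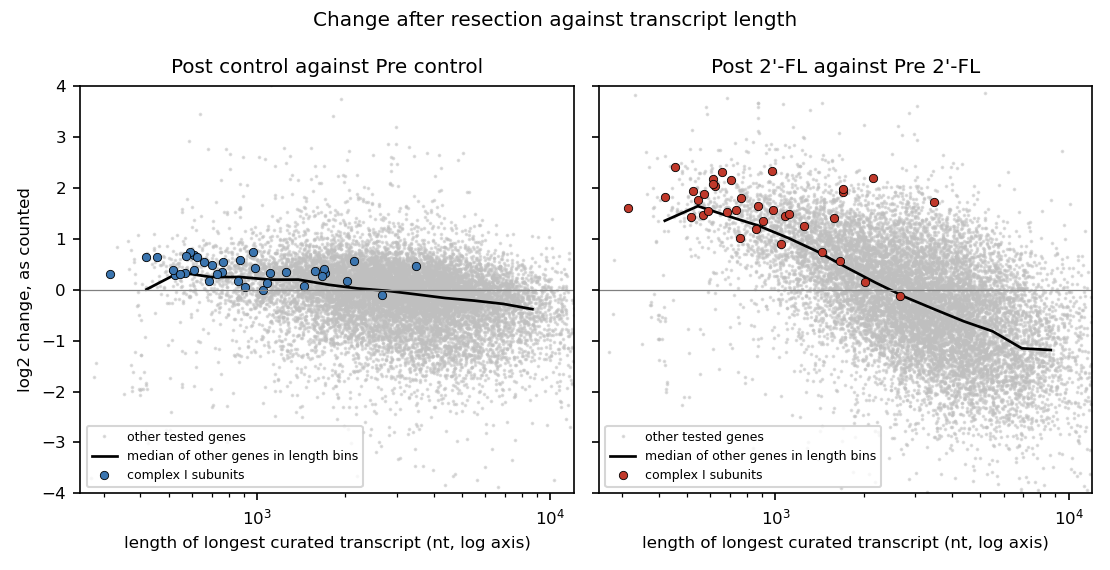
Log2 change after resection, as counted, against the length of the longest curated transcript (log axis) for complex I genes (large points) and 12691 other tested genes (grey), with a line at the median of the other genes in bins of length; 136 other genes on the left and 152 on the right lie beyond the axes. In the 2'-FL arm the line falls with length and most complex I genes lie on or above it. Ndufab1, at 1.73 and a curated length of 3479 nt, is the farthest above, a place that rests on that length.

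After resection without the supplement (Post control against Pre control), no complex I gene was called. Of 36 members, 0 were called higher and 0 lower, against 4.42% of tested genes called higher and 6.33% lower. The edgeR test gave an unadjusted p under 0.05 for 14 of 36, where it did so for 3889 of the 13154 tested genes. A positive change was seen in 34 of 36. The median log2 change was 0.36, from -0.10 (Ndufs1) to 0.74 (Ndufa6), against -0.05 over all tested genes. In 10 of 36 members all Post control libraries lay above all Pre control libraries, against 17.3% of tested genes, and in 0 were they below, against 17.6%. The smallest edgeR adjusted p was 0.0611, for Ndufa6, which stood at 125, 140 and 98.2 CPM in Pre control, 115, 94.4 and 114 CPM in Pre 2'-FL, 194, 277 and 139 CPM in Post control and 319, 259 and 371 CPM in Post 2'-FL. Its Pre control and Post control libraries overlap by a narrow margin, at 140 and 139 CPM.

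The count in the control arm rested on Post control 3. Without it 10 members were called higher, with a median of 0.55, where 5.76% of the 13402 genes then tested were called higher. These were Ndufb4 (1.03 ± 0.24), Ndufa6 (0.97 ± 0.23), Ndufa4 (0.90 ± 0.25), Ndufa2 (0.88 ± 0.21), Ndufb2 (0.87 ± 0.18), Ndufa1 (0.85 ± 0.23), Ndufb7 (0.84 ± 0.21), Ndufb8 (0.80 ± 0.21), Ndufa5 (0.79 ± 0.21) and Ndufs8 (0.61 ± 0.18). Leaving out the first or the second Post 2'-FL library, which belong to neither group compared but share the model, gave 2 and 1, where 6.23% and 4.77% of tested genes were called higher. DESeq2 called 5 members in all libraries, and 7.12% of tested genes higher (Ndufa2, Ndufa4, Ndufa6, Ndufb2 and Ndufb7). With length and GC corrected, edgeR called 4 members, Ndufb2 (0.70), Ndufa1 (0.66), Ndufb7 (0.65) and Ndufa2 (0.62), against 7.53% of tested genes called higher and 5.01% lower, and the median was 0.31. Under 1000 nt the 23 members had a median of 0.42 as counted and the 721 other genes 0.25, and 0 of 23 and 55 of 721 (7.63%) were called higher. The 135 other genes at the same levels had a median of 0.41, close to that of the members.

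After resection the arms were also compared with each other (Post 2'-FL against Post control). Of 36 members, 33 were called higher and 0 lower, against 18.8% of tested genes called higher and 19.3% lower. The median log2 change was 1.16 (2.23-fold), from -0.06 to 1.71, and 32 members were higher without overlap between the libraries, against 25.2% of tested genes. The 5 largest changes were those of Ndufb2 (1.71 ± 0.21), Ndufb6 (1.61 ± 0.23), Ndufa7 (1.50 ± 0.23), Ndufb9 (1.49 ± 0.25) and Ndufb4 (1.48 ± 0.28). The 3 smallest called changes were those of Ndufa9 (0.59 ± 0.15), Ndufs7 (0.62 ± 0.17) and Ndufa6 (0.64 ± 0.24). Ndufv1 (0.19 ± 0.18), Ndufa10 (0.11 ± 0.16) and Ndufs1 (-0.06 ± 0.17) were not called. The call of Ndufa6, at an edgeR adjusted p of 0.0496, was lost without any of 5 libraries (the third of Pre 2'-FL, and the first or the third of either Post group; adjusted p = 0.0672 to 0.166), and that of Ndufa13 without Post 2'-FL 3 (0.0672).

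With length and GC corrected, 11 members were called higher after resection with the supplement than without, against 10.2% of tested genes, and the median was 0.27. These were Ndufab1 (1.13), Ndufb8 (1.04), Ndufv3 (0.73), Ndufb4 (0.73), Ndufb9 (0.68), Ndufs8 (0.66), Ndufb2 (0.61), Ndufb7 (0.59), Ndufs4 (0.57), Ndufv2 (0.52) and Ndufa13 (0.52). With the correction and without Post control 3, 3 members were called, where 3.81% of tested genes were called higher. In 7 members that were called as counted the corrected change was negative and not called, among them Ndufa1 (-0.44) and Ndufa6 (-0.34). Under 1000 nt, 23 of 23 members and 496 of 721 other genes (68.8%) were called higher as counted, with medians of 1.22 and 1.08. Corrected, 5 of 23 and 90 of 721 (12.5%) were called higher, with medians of 0.25 and 0.07.

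Before resection no complex I gene was called between the arms (Pre 2'-FL against Pre control). Of 36 members, 0 were called either way, where edgeR called 0% of tested genes higher and 0.0152% lower. The edgeR test gave an unadjusted p under 0.05 for 0 members and for 445 of the 13154 tested genes. DESeq2 called 0 members as well. The median log2 change was -0.09, from -0.24 (Ndufb11) to 0.15 (Ndufa5). Ndufb11 stood at 118, 112 and 116 CPM in Pre control and 91.4, 98.0 and 103 CPM in Pre 2'-FL, which do not overlap, and at 123, 146 and 91.1 CPM in Post control and 274, 194 and 276 CPM in Post 2'-FL. Ndufa5 stood at 44.2, 40.3 and 50.04 CPM in Pre control and 47.9, 47.3 and 53.9 CPM in Pre 2'-FL, which overlap, and at 72.7, 80.1 and 48.5 CPM in Post control and 190, 118 and 161 CPM in Post 2'-FL. In all, 8 members were lower and 1 higher without overlap, against 4.91% and 4.31% of tested genes.

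Whether resection changed complex I genes differently in the 2 arms was tested as an interaction, in which a positive value means a larger log2 change with 2'-FL than in controls. Of 36 members, 30 were called higher and 0 lower, against 7.47% of tested genes called higher and 8.03% lower, and the median was 1.25. The 5 largest were Ndufb2 (1.78 ± 0.30), Ndufb6 (1.77 ± 0.32), Ndufa7 (1.70 ± 0.33), Ndufb9 (1.67 ± 0.34) and Ndufs5 (1.65 ± 0.31). The 3 smallest called were Ndufa9 (0.68 ± 0.22), Ndufs3 (0.91 ± 0.24) and Ndufa8 (1.02 ± 0.28). Ndufa13, Ndufs7, Ndufa6, Ndufv1, Ndufa10 and Ndufs1 were not called. Without Post control 3, 16 members were called higher, where 1.97% of tested genes were. Corrected for length and GC, edgeR called 0 members, where it called 0% of tested genes, with a median of 0.37 and a smallest adjusted p of 0.0598 (Ndufb8, 1.27). Under 1000 nt, 21 of 23 members and 314 of 721 other genes (43.6%) were called higher as counted, and 90 of the 135 at the same levels (66.7%). The 5 comparisons share groups of libraries, so that their values for a gene are not independent.

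Levels can be compared between genes only per length. As CPM per kb of the shortest curated transcript in Pre control, Ndufa4 was highest (334), followed by Ndufb9 (247), Ndufb8 (208), Ndufa6 (205) and Ndufc1 (171). Ndufab1 (27.2), Ndufa10 (42.5), Ndufs1 (44.5) and Ndufs4 (46.8) were lowest. In Post 2'-FL the same scale gave 1478 for Ndufa4, 973 for Ndufb9, 831 for Ndufb8, 536 for Ndufa6 and 494 for Ndufc1, and 84.3 for Ndufab1, 51.3 for Ndufa10, 39.8 for Ndufs1 and 160 for Ndufs4. Ndufs1 and Ndufa10 were thus the lowest of these in Post 2'-FL. In 15 of 36 members the exons overlap those of another gene, mostly on the other strand, and 17 of 36 had counts within 0.01 of a whole number in all 12 libraries. Whether the counting used strand is not given in the sources used here, so reads of such pairs cannot be told apart.

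Genes of the same pathway were read beside the members from lists chosen with earlier results of these data known. Of 4 other nuclear complex I genes listed, 2 were found and tested. In the 2'-FL arm 1 of these 2 was called higher (0.72), and the other changed by -0.38 and was not called. Corrected, 0 of them were called, and in the control arm 0 were called as counted or corrected. Assembly factors, which build complex I but are not part of it, were called as follows: of 15 found, 10 were higher and 0 lower in the 2'-FL arm, with a median of 0.92, and 0 in the control arm. Over all tested genes 25.3% were called higher and 30.0% lower in the 2'-FL arm, or 21.0% and 14.8% when corrected. In the control arm 4.42% of tested genes were called higher and 6.33% lower. Among the assembly factors called were Ndufaf5 (2.06 ± 0.24), Timmdc1 (1.29 ± 0.20) and Ndufaf2 (1.62 ± 0.26), the 3 with the smallest p. With the correction 5 were higher and 1, Ndufaf1 (-0.97), was lower. Of 38 subunit genes of complexes II to V, 34 were higher and 1 lower, with a median of 1.62, and the median in the control arm was 0.42 with 0 called. The smallest p belonged to Uqcrq of complex III (2.36 ± 0.25) and to the ATP synthase genes Atp5j2 (2.11 ± 0.23) and Atp5l (2.19 ± 0.24), and Sdha of complex II fell by 0.63 on the log2 scale. Corrected, 25 were higher and 2 lower in the 2'-FL arm, with a median of 0.72. In the control arm 6 were called higher and 0 lower with the correction, with a median of 0.33, beside 7.53% of tested genes called higher. Of 49 cytosolic ribosomal protein genes, which are short and abundant, 48 were higher in the 2'-FL arm with a median of 1.49, Rpl11, Rpl35 and Rpl34 leading by p (1.70, 2.12 and 2.15). Corrected, 30 were higher and 2 lower, with a median of 0.54, near the 0.57 of the complex I genes. Between the Post groups 49 of 49 were higher, and 32 when corrected, with medians of 1.43 and 0.63, where the complex I genes had 1.16 and 0.27. Over all tested genes the shares called higher were 18.8% as counted and 10.2% corrected. In the control arm the ribosomal protein genes had a median of -0.06, with 15 of 49 positive and 0 called. Without Post control 3 that median was 0.11, with 31 of 49 positive and 2 called higher (Rpl11 and Rps14), so that its sign rests on that library. Without it complexes II to V had a median of 0.60 with 6 called higher, the assembly factors 0.20 with 1 called higher (Tmem126b), and the complex I genes 0.55 with 35 of 36 positive. Over all tested genes 5.76% were called higher without that library. Differences between the lists were not tested.

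Among 12 regulators of mitochondrial gene expression, 4 rose and 5 fell in the 2'-FL arm, beside 25.3% and 30.0% of tested genes. Tfam, which packages and transcribes mitochondrial DNA, rose by 0.95 ± 0.20, and Yy1 rose by 0.80 ± 0.19. Esrra, the estrogen-related receptor alpha, rose by 0.86 ± 0.22 and Gabpb1 by 0.56 ± 0.17. The mitochondrial RNA polymerase gene Polrmt fell by 1.32, the coactivator genes Pprc1, Ppargc1a and Ppargc1b fell by 1.79, 0.99 and 1.35, and the DNA polymerase gene Polg fell by 0.51 on the log2 scale. Corrected for length and GC, Tfam, Yy1, Esrra and Gabpb1 were still called higher, the 3 coactivator genes and Polrmt were not called, and Polg was called higher (0.91). Over all tested genes 21.0% were called higher and 14.8% lower with that correction. Nrf1 (-0.38), Tfb2m (0.35) and Gabpa (0.04) were not called as counted. In the control arm, where 4.42% of tested genes were called higher, Gabpb1 alone was called as counted (0.65 ± 0.17). It was called again without Post control 3.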

How the data were processed

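The authors deposited expected counts, that is estimated read counts of every gene without normalisation, as 1 table for each of 12 libraries, per the file headers. Per the submitters' processing notes, mm10 was the build and DESeq was used. Aligner, counting program, annotation and strand are not given in the sources used here. TruSeq libraries, from some 1.5 µg RNA, were run on a HiSeq 2000, per the labels' protocols. Of the 36186 entries of a file, 486 belong to genes listed at several places. Entries were summed by Entrez identifier to 35791 genes and rounded.

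Genes were kept with filterByExpr by group (13154), scaled with TMM and tested in R 4.3.3 with edgeR 4.0.16, in 1 quasi-likelihood model with a mean per group over all 12 libraries (8 residual degrees of freedom, biological coefficient of variation 0.238). Adjusted p-values come from its F test (two-sided) and were Benjamini-Hochberg adjusted across the 13154 genes, with calls below 0.05. An SE is the absolute log2 change over the root of F. Transcript length and GC content came from GENCODE mouse transcripts matched to curated RefSeq entries, for 12727 tested genes, as the longest transcript. Corrected values use offsets per library from natural splines with 4 degrees of freedom each for length and GC (prior count 2). No test was made of the list as a whole. Groups compared have 3 libraries each, and that number limits the precision.

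The members and all lists were chosen with earlier results of these data known. Named were the 2 members with the smallest p in the 2'-FL arm in each subunit group, all core matrix arm genes, the largest change either way in each other comparison, called members (5 largest and 3 smallest where more than 10), and members not called in the 2'-FL arm. Of the lists of assembly factors, complexes II to V, ribosomal proteins, regulators and amount of mitochondria, the 3 genes with the smallest p are among those named. Further members are given so that all 36 are accounted for. Alternatives were DESeq2 1.42.0 and its size factors, no filter, length alone, a replicate block, a fit of only the 2 groups compared and leaving out each library, and, chosen after seeing the data, the shortest transcript and the correction without Post control 3. Symbols Ndufaf8, Coa1 and Dmac1 of the assembly factor list were not matched and are not analysed here.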

Additional observations from a re-analysis of the deposited data

Results flagged for a closer look

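The change after resection differed between the 2'-FL arm and the control arm in 30 members by the interaction term of the edgeR model (adjusted p 0.0159 to 0.0466), with every value positive. The same term was called higher in 7.47% of tested genes and lower in 8.03%. Among the 30 members, the interaction in the core of the matrix arm was, on the log2 scale, 1.57 for Ndufv2, 1.15 for Ndufs8 and 0.91 for Ndufs3. Among the accessory genes of the matrix arm it was 1.70 for Ndufa7, 1.59 for Ndufs4, 1.22 for Ndufa2, 1.16 for Ndufa12, 1.15 for Ndufs6, 1.08 for Ndufa5, 1.04 for Ndufv3 and 0.68 for Ndufa9. In the proximal membrane arm it was 1.65 for Ndufs5, 1.46 for Ndufa11, 1.36 for Ndufc2, 1.28 for Ndufc1, 1.18 for Ndufa1, 1.03 for Ndufa3 and 1.02 for Ndufa8. In the distal membrane arm it was 1.78 for Ndufb2, 1.77 for Ndufb6, 1.67 for Ndufb9, 1.62 for Ndufb8, 1.58 for Ndufb4, 1.40 for Ndufb7, 1.32 for Ndufb5, 1.29 for Ndufb11, 1.26 for Ndufb3 and 1.25 for Ndufb10. Ndufab1 had 1.25 and Ndufa4 1.49. Of these 30 calls, 14 were lost without at least 1 library. With length and GC corrected edgeR called 0 of 36 members and 0% of tested genes.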

How the results depend on the processing

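The medians of the members kept their sign under every alternative run, and 0 members were called lower in any, but the counts called higher and the size of the changes moved with the correction for transcript length. Under length and GC, the members called higher numbered 4 in the control arm, 22 in the 2'-FL arm, 11 between the Post groups and 0 in the interaction, with medians of 0.57, 0.27 and 0.37 in the last 3. The shares of tested genes called higher were 7.53%, 21.0%, 10.2% and 0% in the same order. With length alone the counts were 3 in the control arm, 23 in the 2'-FL arm, 9 between the Post groups and 1 in the interaction, with medians of 0.60 in the 2'-FL arm, 0.25 between the Post groups and 0.28 in the interaction. Of tested genes 6.17%, 24.35%, 13.9% and 0.403% were then called higher. With the shortest transcript the counts of members were 5, 31, 16 and 0, so that the number lost in the 2'-FL arm depends on the transcript chosen, with medians of 0.64, 0.37 and 0.41. The shares of tested genes were 7.78%, 22.4%, 11.6% and 0.517%. With length and GC corrected and Post control 3 left out, the counts were 6, 22, 3 and 0 in the control arm, the 2'-FL arm, between the Post groups and in the interaction, with medians of 0.59, 0.23 and 0.33 in the last 3. The shares of tested genes were 7.16%, 20.4%, 3.81% and 0%. DESeq2 called 5 members in the control arm, and 7.12% of tested genes higher. The shortest transcript and the correction without Post control 3 were settings chosen after seeing the data.

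Leaving out each library in turn gave 0 to 10 members called higher in the control arm, 33 to 34 in the 2'-FL arm, 31 to 33 between the Post groups and 16 to 32 in the interaction. Among the 13278 to 13431 genes then tested, 141 to 835, 2913 to 3597, 1602 to 2767 and 264 to 1437 were called higher. The medians of the members ran from 0.23 to 0.55, 1.52 to 1.77, 1.04 to 1.39 and 1.13 to 1.47. The extreme counts of members in the control arm and the interaction, 10 and 16, both came without Post control 3. There 5.76% and 1.97% of tested genes were called higher. The replicate numbers did not pair the libraries: same-numbered libraries correlated between -0.23 and 0.42, and 4 of 18 correlated best with their own number. With the replicate number as a block, 0, 34, 32 and 27 members were called higher, where 545, 3251, 2374 and 743 of the 13154 tested genes were. With the block and the length and GC correction, 4, 21, 10 and 0 members were called higher, beside 1037, 2676, 1290 and 0 of the tested genes. The medians of the members were 0.57, 0.27 and 0.37 in the 2'-FL arm, between the Post groups and in the interaction.

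Single genes that were called as counted changed sign in the corrected fits, and none of these was called with the other sign. Under length and GC these were Ndufa9 in the 2'-FL arm (-0.10), then Ndufb3 (-0.11), Ndufc1 (-0.21), Ndufa4 (-0.085), Ndufa9 (-0.10), Ndufa3 (-0.21), Ndufa6 (-0.34) and Ndufa1 (-0.44) between the Post groups, and Ndufb3 (-0.11), Ndufc1 (-0.28), Ndufa4 (-0.091), Ndufa3 (-0.23) and Ndufa1 (-0.43) in the interaction. With the replicate block added, the same genes gave -0.10 in the 2'-FL arm, -0.12, -0.21, -0.082, -0.10, -0.21, -0.32 and -0.43 between the Post groups, and -0.11, -0.26, -0.087, -0.23 and -0.40 in the interaction. With length alone these were Ndufs7 in the 2'-FL arm (-0.065), Ndufc1 (-0.27), Ndufa3 (-0.19), Ndufs7 (-0.33), Ndufs6 (-0.13), Ndufa6 (-0.43) and Ndufa1 (-0.23) between the Post groups, and Ndufc1 (-0.32), Ndufa3 (-0.22), Ndufs6 (-0.041) and Ndufa1 (-0.23) in the interaction. With the shortest transcript these were Ndufa6 (-0.14) and Ndufa1 (-0.14) between the Post groups, and Ndufa5 (-0.11) and Ndufa1 (-0.085) in the interaction. The corrections assume that length and GC do not carry the change itself, and gene counts do not show which transcript was expressed. All members stood at 29.7 CPM or more in every library. What depth adds to the error of their calls was not tested.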

Other observations

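Genes that mark the amount of mitochondria did not move as 1 block. Of 17 genes of the outer membrane, import, chaperones and citrate cycle, 10 were called higher and 2 lower after resection in the 2'-FL arm in the edgeR test, with a median log2 change of 0.66, beside 25.3% and 30.0% of tested genes. Corrected for length and GC, 7 were higher and 2 lower, with a median of 0.23, beside 21.0% and 14.8% of tested genes. The import receptor genes Tomm20 (1.91 ± 0.26) and Tomm22 (1.38 ± 0.19) and the inner membrane import gene Timm23 (1.49 ± 0.23) had the smallest p, and were also called with length and GC corrected (2.40, 0.44 and 0.50). The chaperone genes Hspd1 and Hspa9 fell by 0.79 and 0.56 on the log2 scale, while Hspe1, the partner of Hspd1, rose by 1.89 ± 0.33. Vdac3 rose by 0.64 ± 0.18 as counted and was called lower when corrected (-0.56). Cs, the citrate synthase gene often used as a measure of mitochondrial content, was not called (-0.56 ± 0.25), nor were Vdac1 (0.25 ± 0.18) and Vdac2 (0.31 ± 0.19). In the control arm 0 of the 17 were called, with a median of 0.16, or 0.21 without Post control 3.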
